A study of Homo sapiens with 4 samples.

Results

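The CCN genes encode a family of 6 secreted matricellular proteins, CCN1 to CCN6, and all 6 were found by symbol among the 61806 genes of the deposited table. They were measured by RNA sequencing in JJ012, an established human chondrosarcoma cell line (genotype WT in the labels), in 2 untreated libraries and 2 libraries from cells that received Antcin K, a triterpenoid of the fungus Antrodia cinnamomea, at 10 µM for 24 h. All cells grew in a serum-containing mix of DMEM and alpha-MEM; the labels name no vehicle for the untreated cells and do not say whether the libraries of a group came from separate cultures. The spread within a group may therefore be technical. The family was chosen after CCN4 had stood out among the genes lower with Antcin K in these same libraries. The members' differences between the groups are therefore given as a description, with no test.

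CCN proteins are built from modules shared with other extracellular proteins: an insulin-like growth factor binding module, a von Willebrand type C module, a thrombospondin type 1 repeat and, in all but CCN5, a cystine-knot module at the C-terminus. They act in the matrix around cells by binding integrins, heparan sulfate proteoglycans and growth factors, and in this way affect adhesion, migration and the formation of cartilage and bone. CCN1 and CCN2 are known targets of YAP and TEAD, of SRF with MRTF and of TGF-β, and CCN4 is known as a target of Wnt and β-catenin. CCN2 is needed in mouse for normal growth-plate cartilage, and loss of CCN6 in people causes a degenerative joint disease of childhood.

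In the deposited annotation all 6 genes carry the terms heparin binding, insulin-like growth factor binding and integrin binding. These terms stood on 233, 19 and 248 genes of the table, and the 6 CCN genes were all the genes that carried the 3 together. Each is protein-coding, with up to 5 exons in a GENCODE release 29 transcript, or up to 7 for CCN6. CCN1 (ENSG00000142871) lies on chromosome 1 at 85580761 to 85584589, plus strand, in hg38. CCN2 (ENSG00000118523, 131948176 to 131951372, minus strand) and CCN6 (ENSG00000112761, 112054075 to 112069686, plus strand) share chromosome 6, 19.9 Mb apart. CCN3 (ENSG00000136999, 119416446 to 119424434, plus strand) and CCN4 (ENSG00000104415, 133191039 to 133231690, plus strand) share chromosome 8, 13.8 Mb apart. CCN5 (ENSG00000064205) lies on chromosome 20 at 44714844 to 44728509, plus strand. CCN5 overlaps KCNK15-AS1 on the opposite strand, which held 201 counts over the 4 libraries against 64 for CCN5, so its reads are less certain because the strand setting of the counting is not given in the sources used here. CCN2-AS1, opposite CCN2, held 1 count, and the 2 unnamed genes opposite CCN3 held 0.

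The libraries held between 16911257 and 26270686 counts. Untreated replicate 1 stands apart: mitochondrially encoded genes took 26.0% of its counts against 12.9% to 19.3% in the other 3. The untreated replicates correlated less across genes (r = 0.963) than the Antcin K replicates did (r = 0.984). Untreated replicate 2 correlated more with Antcin K replicates 1 and 2 (r = 0.9748 and 0.9711) than with untreated replicate 1. For untreated replicate 1 the values with Antcin K replicates 1 and 2 were 0.951 and 0.964. Neither untreated library was thus closest to the other by this measure. Of the 12 markers of chondrocytes, 5 passed the count filter used below. SOX9, the master factor of cartilage, was read in all libraries, while COL2A1 and CNMD were at 0 counts and ACAN and HAPLN1 at or near 0. The summed level of the 12 chondrocyte markers ran from 14.3 to 30.0 CPM untreated and from 9.54 to 15.6 CPM after Antcin K. The summed level of 7 fibroblast markers ran from 50.7 to 89.8 CPM untreated and from 25.1 to 37.8 CPM after Antcin K; PTPRC and HBB, which define blood cells, were at 0. The summed level of the epithelial markers, mostly KRT8 and KRT18, ran from 543 to 600 CPM untreated and from 290 to 344 CPM after Antcin K, with EPCAM near 0. The part of these marker levels in the CCN values was not tested. Of the 14717 genes that passed the count filter, edgeR's quasi-likelihood test called 0 (0%) at a Benjamini-Hochberg adjusted p under 0.05, with 1821 at an unadjusted p under 0.05, with limma voom also at 0 and edgeR with a replicate block at 26 (0.177%). DESeq2 called 58 of the 11293 genes to which it gave an adjusted p (0.514%), and edgeR without the count filter called 208 of 28764 (0.723%).

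Levels are given as CPM, counts scaled to library totals adjusted by the TMM method, and as the deposited FPKM, which divides by exonic length, where different genes are compared. Per length, CCN3 was the most abundant member, at 14.1 ± 3.18 FPKM in untreated cells (SD, n = 2), followed by CCN1 at 6.57 ± 2.76 and CCN2 at 3.23 ± 1.37 FPKM. CCN4 followed at 0.745 ± 0.049 FPKM, and CCN6 and CCN5 stood lowest at 0.235 ± 0.134 and 0.195 ± 0.092 FPKM. In the untreated libraries the ranges of CCN3, CCN1, CCN2 and CCN4 did not overlap, and those of CCN6 and CCN5 did. The mean of CCN3 lay above those of 84.5% of the tested genes, the mean of CCN1 above 74.4%, that of CCN2 above 62.4% and that of CCN4 above 31.5%. After Antcin K the order CCN3, CCN1, CCN2 was kept at 10.7 ± 0.346, 4.96 ± 1.07 and 2.68 ± 0.396 FPKM. CCN4, at 0.070 FPKM in both Antcin K libraries, then lay within the range of CCN5 (0.06 and 0.17 FPKM) and of CCN6 (0.03 and 0.09 FPKM).

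**Figure D1:**
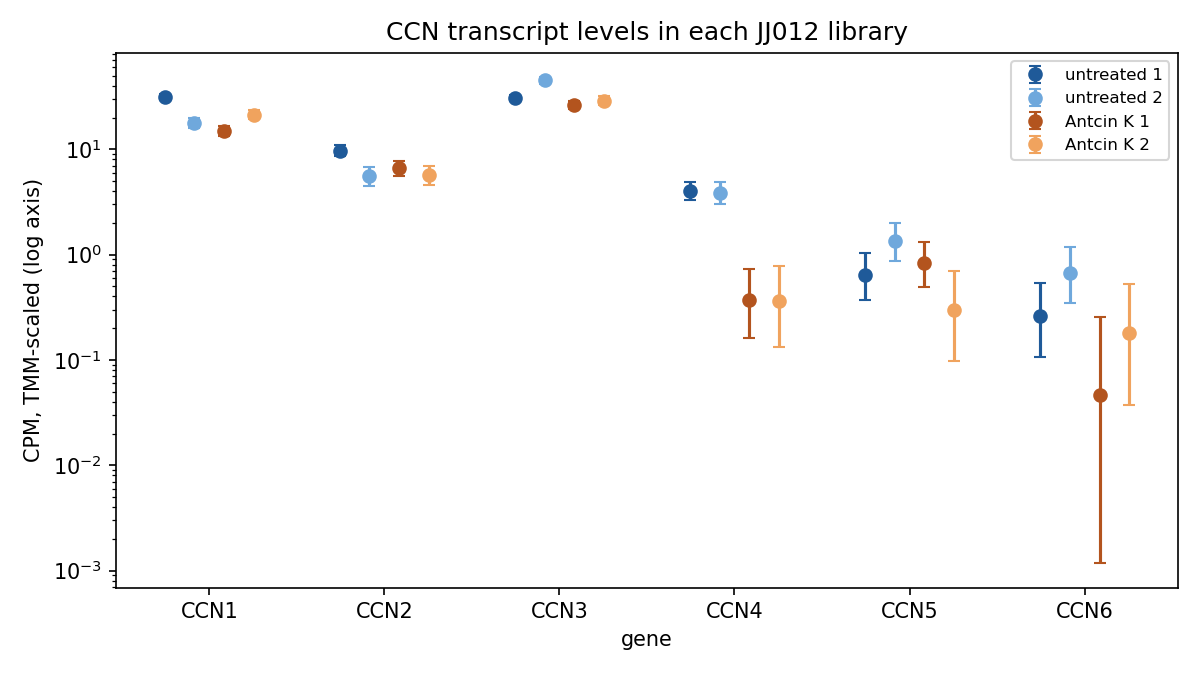
Level of each CCN gene in each library, as CPM on a log axis, with points for the 4 libraries and bars for exact 95% Poisson intervals, which cover counting error only. The CCN4 points separate by group (4.03 and 3.86 CPM against 0.371 and 0.359 CPM), while those of CCN1, CCN2 and CCN5 overlap between groups.

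All 6 genes had a lower mean CPM after Antcin K. Both Antcin K libraries lay below both untreated libraries for 3 of them, CCN3, CCN4 and CCN6, and the groups overlapped for the other 3. Across all tested genes 53.8% had a lower mean and 23.3% had both Antcin K libraries below both untreated libraries, and since the members were chosen on this comparison nothing is read from the counts. Of the members 5 passed the count filter: CCN1, CCN2 and CCN3 reached its level of 0.507 CPM in every library, CCN5 in 3, and CCN4 in the untreated libraries only. CCN6 did not pass, and its values are given from its counts.

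CCN4, once named WISP1, had 107 and 69 reads in the untreated libraries (replicates 1 and 2, here and below) but only 8 and 6 with Antcin K. These counts correspond to 4.03 and 3.86 CPM in untreated cells against 0.371 and 0.359 CPM with Antcin K. Each pair of libraries was close to identical for this gene and the groups lay far apart. The mean was 10.8-fold lower after Antcin K, with 3.95 ± 0.115 and 0.365 ± 0.0085 CPM (SD, n = 2 each). On the summed counts, 176 against 14, the ratio had a counting interval of 6.29 to 20.2. The fitted log2 fold change was -3.41 (standard error, SE, 0.44), and 4 of the 14717 tested genes had a lower value. Among the 11044 tested genes with at least the mean level of CCN4, 1 had a lower value. Both ranks follow from the choice of the family on this comparison and are no separate evidence for the difference.

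The CCN4 replicates agreed more closely than those of most tested genes. The choice of the family on this comparison favours close replicates, so nothing is read from this agreement. The untreated replicates differed by 0.058 in log2 CPM, with 6.73% of the tested genes closer, and the Antcin K replicates by 0.038, with 8.60% of genes closer. Counting error alone allows wider gaps: the ratio of untreated replicate 1 to 2 was 1.04 with a counting interval of 0.763 to 1.43, and that of the Antcin K replicates 1.03 with 0.314 to 3.61. The close match of 8 and 6 counts is thus no measure of how exactly the low level is known. With any of the 4 libraries left out, the log2 fold change of CCN4 stayed between -3.43 and -3.35. Close replicates bring such a narrow range with them, so it is no separate evidence for the difference either.

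**Figure D2:**
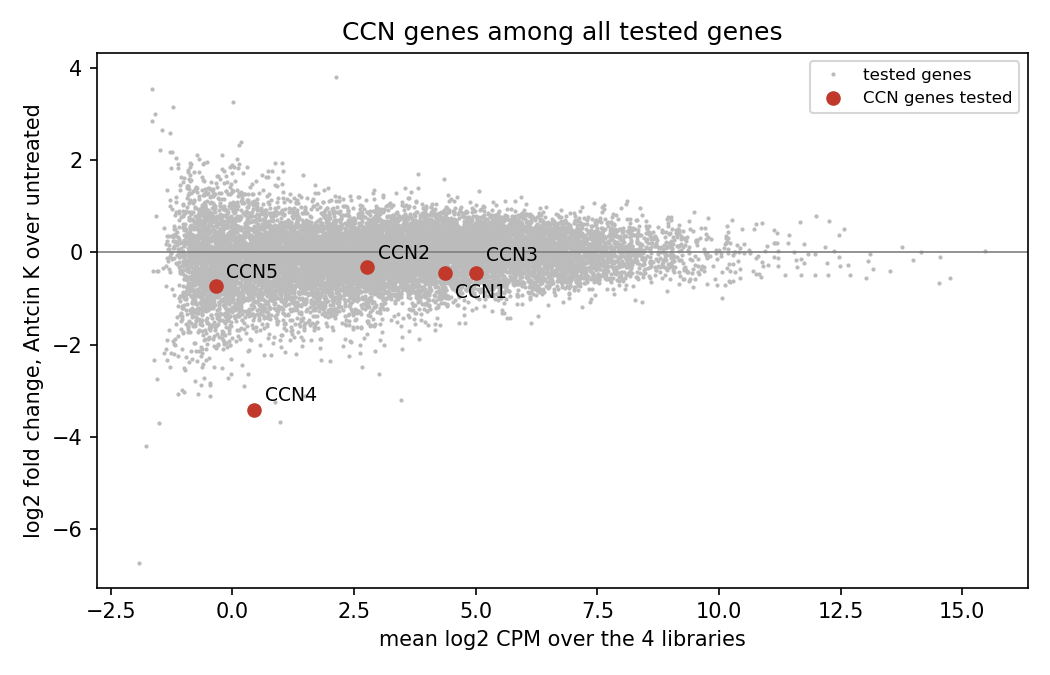
Log2 fold change of each tested gene against its mean log2 CPM over the 4 libraries, with grey points for the 14717 tested genes and red points for the 5 CCN genes among them. CCN4, at -3.41, lies at the lower edge of the cloud, and CCN1, CCN2, CCN3 and CCN5, at -0.44, -0.32, -0.45 and -0.73, lie inside it.

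CCN3, once named NOV, a growth regulator that also binds Notch receptors, was read 816 and 803 times untreated and 567 and 485 times after Antcin K. Its level was 30.7 and 45.0 CPM untreated against 26.3 and 28.98 CPM with Antcin K. The groups did not overlap, but untreated replicate 1 lay closer to the Antcin K libraries than to its own replicate. The log2 fold change was -0.45 (SE 0.26, 95% interval from -1.06 to 0.15.) It was -0.70 without untreated replicate 1 and -0.14 without untreated replicate 2. The untreated replicates differed beyond counting error, with a ratio of 0.683 (counting interval 0.619 to 0.754), and the Antcin K replicates had a ratio of 0.906 (0.801 to 1.03).

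CCN1, once named CYR61, an immediate-early gene that promotes adhesion and chondrogenesis, was read 828 and 320 times untreated and 321 and 357 times after Antcin K. Its level was 31.2 and 17.9 CPM untreated, against 14.9 and 21.3 CPM with Antcin K. Untreated replicate 1 was high and the other 3 libraries lay near each other, with untreated replicate 2 between the Antcin K libraries. The log2 fold change was -0.44 (SE 0.33, 95% interval from -1.20 to 0.31), and 0.02 without untreated replicate 1. The untreated replicates had a ratio of 1.74 (counting interval 1.53 to 1.98), and those of Antcin K 0.697 (0.598 to 0.813), so both pairs differed beyond counting error.

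CCN2, once named CTGF, a mediator of matrix deposition in fibrosis and of cartilage growth, was read 258 and 99 times untreated and 143 and 95 times after Antcin K. Its level was 9.71 and 5.54 CPM untreated, against 6.62 and 5.68 CPM with Antcin K. As with CCN1, untreated replicate 1 was the high library, and untreated replicate 2 lay below both Antcin K libraries. The log2 fold change was -0.32 (SE 0.35, 95% interval from -1.12 to 0.49), and 0.16 without untreated replicate 1. That library also had the highest mitochondrial share (26.0%), whose part in the levels of CCN1 and CCN2 was not tested. Over the 4 libraries, CCN1 and CCN2 were the closest pair of tested members, at a Euclidean distance of 0.542 between their log2 CPM values centred on each gene's mean, while CCN4 lay 2.62 to 2.93 from every other member.

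**Figure D3:**
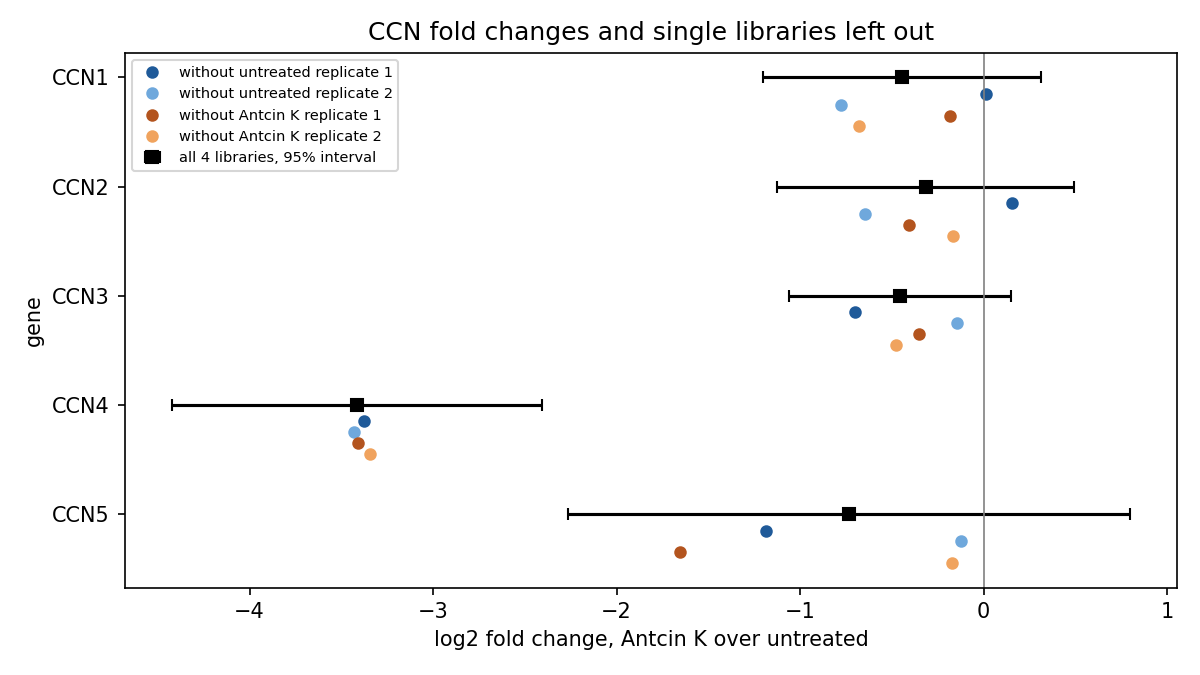
Log2 fold change of the 5 tested CCN genes, with black squares and bars for the fit of all 4 libraries and its 95% interval, and coloured points for the fits with a single library left out. The CCN4 points stay between -3.43 and -3.35, while CCN1 and CCN2 pass 0 without untreated replicate 1 (0.02 and 0.16).

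The promoters shown are those of the members whose sequence was used, CCN2 and CCN6, and were not picked by motif. Both were read for the TEAD motif because CCN2 is a textbook target of YAP and TEAD. They come from RefSeq (GRCh38.p14) and span 250 bases before to 50 bases after the start of the gene, 5′ to 3′ on the gene's strand, with GGAATG, the core of the TEAD motif, or its reverse complement CATTCC in capitals. CCN2 is chr6:131951323-131951622 on the minus strand, and CCN6 is chr6:112053854-112054153 on the plus strand. For CCN1, CCN3, CCN4 and CCN5 no sequence is shown.
CCN2: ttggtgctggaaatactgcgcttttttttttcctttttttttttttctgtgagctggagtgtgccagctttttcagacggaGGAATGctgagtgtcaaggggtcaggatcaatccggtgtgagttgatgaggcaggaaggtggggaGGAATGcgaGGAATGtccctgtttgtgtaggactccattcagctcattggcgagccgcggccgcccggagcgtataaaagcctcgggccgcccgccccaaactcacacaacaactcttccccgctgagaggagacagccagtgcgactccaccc
CCN6: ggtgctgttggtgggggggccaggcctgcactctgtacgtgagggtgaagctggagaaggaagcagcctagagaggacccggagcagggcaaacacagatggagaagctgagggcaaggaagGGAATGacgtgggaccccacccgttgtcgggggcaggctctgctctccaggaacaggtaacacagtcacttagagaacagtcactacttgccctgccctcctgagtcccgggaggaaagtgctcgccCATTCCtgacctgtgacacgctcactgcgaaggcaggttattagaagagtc

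In the CCN2 promoter the motif starts at bases -169, -104 and -95 from the start site, always on the gene's strand, and the last 2 copies are separated by 3 bases. A TATAAA box starts at -32. The CCN6 promoter holds GGAATG at -128 and CATTCC at -1. Searched on both strands, overlaps allowed, at least 1 copy stood in 14.0% of 35116 RefSeq promoters of the same length, at least 2 in 1.37% and at least 3 in 0.128%. A match describes the letters only, and says nothing of binding in these cells.

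CCN5, once named WISP2, the member without the C-terminal module, was read 17 and 24 times untreated and 18 and 5 times after Antcin K, or 0.640 and 1.34 CPM against 0.834 and 0.299 CPM. Antcin K replicate 1 lay between the untreated libraries and Antcin K replicate 2 below all others. The log2 fold change of -0.73 had an SE of 0.67 (95% interval from -2.27 to 0.80), and it ran from -1.66 without Antcin K replicate 1 to -0.12 without untreated replicate 2. The Antcin K replicates differed by 1.23 in log2 CPM, more than 97.3% of the tested genes did.

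CCN6, once named WISP3, was read 7 and 12 times untreated and 1 and 3 times after Antcin K, or 0.263 and 0.672 CPM against 0.046 and 0.179 CPM. The groups did not overlap, but 1 count was worth 0.038 to 0.060 CPM, so the lower group rests on 4 reads. On the summed counts, 19 against 4, the untreated level was 4.10 times the Antcin K level, with a counting interval of 1.36 to 16.6 that leaves out the spread between libraries.

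Summed over the family, the level was 25.7 and 24.6 FPKM untreated and 17.9 and 19.3 FPKM after Antcin K. CCN3 held most of the sum in 3 of the 4 libraries, with 46.3% and 66.7% untreated and 58.5% and 56.8% after Antcin K. CCN1 held 33.2% and 18.8% untreated and 23.5% and 29.6% after Antcin K, so the shares of these genes varied more between the untreated replicates than between the groups. CCN4 held 3.04% and 2.89% of the sum untreated and 0.391% and 0.363% after Antcin K. In bulk libraries, fewer cells with a transcript and less of it per cell cannot be told apart.

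**Figure D4:**
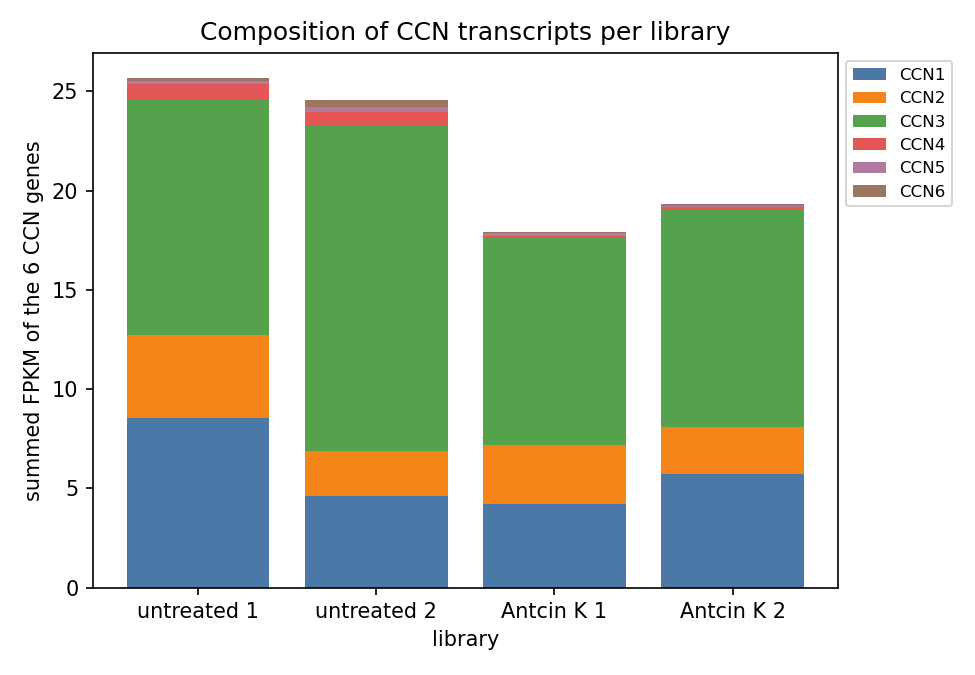
Summed FPKM of the 6 CCN genes in each library, stacked by gene. The totals are 25.7 and 24.6 in untreated cells and 17.9 and 19.3 after Antcin K, and CCN3 is the largest block in every bar.

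The genes around the family were read from 8 lists covering its receptors, its upstream regulators, other targets of these and related matrix genes, 114 genes in all. Of the 95 tested, edgeR called 0 in either direction and the lowest adjusted p was 0.366. Both values were the same over all 14717 tested genes, so they say nothing particular about the lists. An unadjusted p under 0.05 (edgeR) was seen for 10 (10.5%), against 12.4% of all tested genes, counting both directions. These 10 all had a lower mean, but the matching share of all tested genes is not given, so nothing is read from their direction. A lower mean was seen for 61 of the 95 (64.2%, against 53.8% of all tested genes). The median log2 fold change was -0.13, against -0.05 over all tested genes. Without untreated replicate 1 a lower mean was seen for 44 of 97, with a median of 0.05. In the reported fit the same 53.8% is the share to set beside the counts of single lists below. Both Antcin K libraries lay below both untreated libraries for 22 of the 95 (23.2%, against 23.3% of all tested genes), and above them for 11 (11.6%, against 22.6%).

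Among receptors and partners of CCN proteins, 8 of 11 tested had a lower mean (median log2 fold change -0.06). The median was -0.26 without untreated replicate 2 and -0.02 with unscaled library totals (6 of 11 lower). On log2(FPKM + 1) and log2(FPKM + 0.1) with a mean FPKM of at least 0.5, it was 0.02 (3 of 7 lower on each). ITGAV, the αv subunit of the integrins that bind CCN1, CCN2 and CCN4, stood at 40.0 and 17.7 CPM untreated, against 10.6 and 8.72 CPM with Antcin K (fitted log2 difference -1.58, SE 0.39, edgeR adjusted p = 0.366). ITGB1, the β1 subunit, stood at 154 and 99.9 CPM untreated, against 50.3 and 47.2 CPM with Antcin K (-1.38, SE 0.28, adjusted p = 0.366). For both subunits the groups did not overlap, and both were called by DESeq2 (adjusted p = 0.0343 and 0.0115). Without untreated replicate 1 their log2 fold changes were -0.86 and -1.03. The partner subunits ITGB5 and ITGA6 had log2 fold changes of 0.24 and -0.03, and the groups overlapped for both. The endocytic receptor LRP1 had -0.60, the Wnt co-receptor LRP6 0.46 and the proteoglycan SDC4 0.39, with adjusted p from 0.505 to 0.644 (edgeR).

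The upstream regulators of CCN1 and CCN2 were read in every library. Of 15 tested genes of YAP, TAZ, TEAD and the Hippo kinases, 10 had a lower mean (median -0.13, and -0.01 without untreated replicate 1), and YAP1 stood at 37.0 and 42.9 CPM untreated, against 37.0 and 38.1 CPM with Antcin K. WWTR1, which encodes TAZ, stood at 11.5 and 6.27 CPM untreated, against 4.63 and 6.27 CPM with Antcin K, high in untreated replicate 1 as CCN1 and CCN2 were. The log2 fold changes of TEAD1, TEAD4 and LATS2 were -0.31, 0.12 and -0.15. Of 18 other tested YAP and TEAD targets, 12 had a lower mean (median -0.21). Without untreated replicate 1 it was 8 of 18 with a median of 0.06, and without untreated replicate 2 it was 15 of 18 with -0.42. Among these was ANKRD1, often read with CCN1 and CCN2 as a YAP target. It stood at 2.60 and 1.74 CPM untreated, against 3.33 and 3.29 CPM with Antcin K (log2 fold change 0.60, edgeR adjusted p = 0.527). CCN1 and CCN2 had the opposite sign in the fit of all libraries, but 0.02 and 0.16 without untreated replicate 1. AMOTL2 had 0.24, the receptor kinase AXL -0.12, tissue factor F3 -0.82 and the membrane repair gene MYOF -0.60, with adjusted p from 0.395 to 0.869 (edgeR), and NT5E held too few counts to be tested.

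Of 15 tested genes of SRF, MRTF and actin, 9 had a lower mean (median -0.14). The median turned to 0.05 without untreated replicate 1 (6 of 15 lower) and to 0.08 without Antcin K replicate 1 (7 of 15 lower). The genes named here had log2 fold changes of 0.10 for SRF, 0.57 for TAGLN, -0.22 for MYL9, 0.00 for VCL and -0.71 for TPM1. Of 15 tested TGF-β ligands and targets, 10 had a lower mean (median -0.13), and 5 without untreated replicate 1 (median 0.11). TGFB1 stood at 158 and 48.1 CPM untreated, against 47.4 and 95.5 CPM with Antcin K, again with untreated replicate 1 the highest, and SMAD3, SMAD7 and TGFBI had -0.03, -0.52 and -0.17. Of 8 tested Wnt and β-catenin targets, the group to which CCN4 belongs, 3 had a lower mean (median 0.02). The count was 1 of 8 without untreated replicate 1 (median 0.38) or with unscaled library totals, and 6 of 9 without untreated replicate 2 (median -0.15). AXIN2, the feedback inhibitor most used to read this pathway, stood at 1.54 and 0.952 CPM untreated, against 1.39 and 1.14 CPM with Antcin K (fitted log2 difference 0.0046, SE 0.48). LEF1, BMP4 and CCND1 had 0.14, 0.04 and -0.01, while DKK1 was at 0 counts. The groups overlapped for these 4 tested genes, whereas those of CCN4 lay 10.8-fold apart; whether CCN4 differed from them was not tested.

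**Figure D5:**
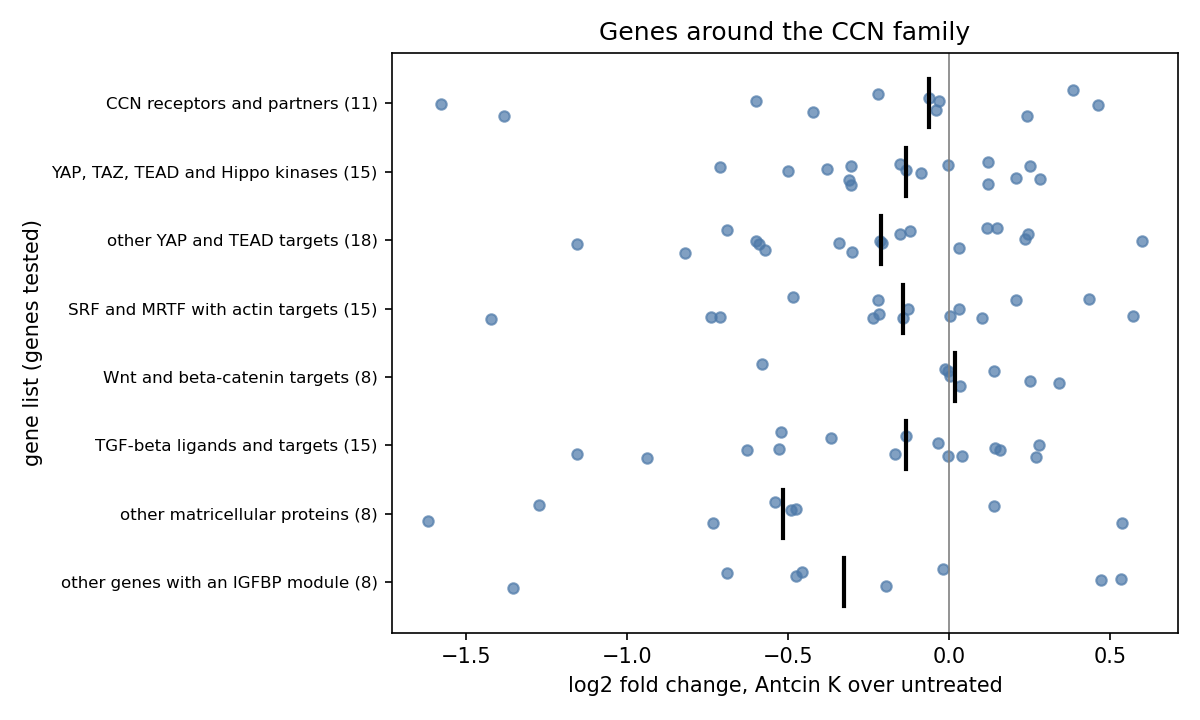
Log2 fold change of each tested gene in the 8 lists around the CCN family (points, spread vertically for legibility) with the median of each list as a black bar. The medians run from -0.52 for other matricellular proteins to 0.02 for Wnt and β-catenin targets.

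Among related matrix genes, 6 of 8 other matricellular proteins tested had a lower mean (median -0.52). The median was -0.05 without untreated replicate 1 (5 of 9 lower), -0.81 without untreated replicate 2 (6 of 9 lower) and -0.27 without the count filter. THBS1, which shares the thrombospondin repeat with CCN proteins, stood at 7.49 and 4.09 CPM untreated, against 1.20 and 2.63 CPM with Antcin K (fitted log2 difference -1.62, SE 0.48, edgeR adjusted p = 0.366). SPARC, a collagen-binding glycoprotein, stood at 117 and 108 CPM untreated, against 162 and 165 CPM with Antcin K (0.54), and TNC, POSTN and SPP1 had -0.54, -1.27 and -0.49. Of 8 tested genes with an insulin-like growth factor binding module outside the family, 6 had a lower mean (median -0.33, and -0.13 without untreated replicate 2, -0.16 without Antcin K replicate 1 and -0.06 without the count filter). IGFBP3, IGFBP4, IGFBP7 and HTRA1 had log2 fold changes of -0.69, 0.53, -0.48 and 0.47, with adjusted p from 0.429 to 0.769 (edgeR), and IGFBP5 held too few counts to be tested.

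The tested genes most like CCN4 over the 4 libraries, by Euclidean distance between centred log2 CPM values, were GPR183 (0.278), KIF12 (0.860) and LINC01297 (0.896), against a median of 3.15 for all tested genes. They were read far less often: GPR183 19 and 10 times untreated and 0 and 0 times after Antcin K, KIF12 14 and 12 against 0 and 1, and LINC01297 32 and 28 against 2 and 4. Like CCN4, each reached the filter level of 0.507 CPM in the untreated libraries only. At counts this low the distance depends on the prior count of 2: the fitted log2 fold change of GPR183 was -6.75, against -3.41 for CCN4. The nearest to CCN1 were CSF1, KCNAB2 and ZNF330 (0.021 to 0.031, median of all tested genes 0.973), and the nearest to CCN2 were RDX, TAF1D and POGLUT3 (0.038 to 0.049, median 0.880). In all 6 of these, untreated replicate 1 was the highest library, as in CCN1 and CCN2, which follows from how they were picked.

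The nearest tested genes along the chromosomes were read beside each member, a choice outside the rule for naming genes. NDRG1, whose end lies 5.48 kb beyond that of CCN4 on the opposite strand, stood at 129 and 130 CPM untreated, against 153 and 156 CPM with Antcin K, and TG, 56.1 kb away on the other side, had overlapping groups (log2 fold changes 0.26 and -0.84). KCNK15, 17.4 kb from CCN5, had a log2 fold change of -1.01 (SE 0.33, edgeR adjusted p = 0.369), and both its Antcin K libraries lay below both untreated libraries. DDAH1, 2.40 kb from CCN1, had -0.10, and TUBE1, 0.976 kb from CCN6, had 0.14, both with overlapping groups. Beside CCN2, ENPP1 and MOXD1 had -0.28 and -0.52, both lower without overlap. Beside CCN3, SAMD12 had 0.85, higher without overlap, and TAF2 had -0.22 with overlapping groups. ZNHIT6 beside CCN1, ADA beside CCN5 and FYN beside CCN6 had -0.55, -0.29 and -0.04, all with overlapping groups.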

How the data were processed

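RNA of 4 JJ012 libraries was sequenced as total RNA, per the labels, and the design text speaks of mRNA. Per the submitters' processing notes the authors' tools included HISAT2 2.2.1, cutadapt 1.9.1 and HTSeq 0.6.1, and the build was hg38. No annotation release or strand setting is given in the sources used here. The deposited table holds raw counts per gene and library, and FPKM that the authors computed from exonic length and library total; recomputed FPKM agreed within 0.005. Groups came from the treatment label.

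Counts were scaled by TMM, filtered with filterByExpr (minimum count 10) and tested with edgeR 4.0.16 in R 4.3.3 (robust quasi-likelihood, group as the only term, Benjamini-Hochberg over 14717 genes); scripts were tested on simulated data. Across tested genes the SE of the fold change (log2) had a median of 0.33. Log2 CPM used a prior count of 2. Counting intervals are exact 95% Poisson or binomial intervals and cover counting error only. Replicates differed beyond counting noise (chi-square per gene 191 untreated, 38.2 Antcin K).

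The members and lists were chosen with earlier results of these data known. Named genes are the 6 members, genes set by role in each list, and the 3 genes nearest in pattern to CCN1, CCN2 and CCN4; a gene of the TGF-β list is not reported here. Alternatives were other scalings and filters, DESeq2 1.42.0, limma 3.58.1 on counts (voom) and on log2(FPKM + 1) or log2(FPKM + 0.1), the replicate number as a block, no mitochondrial genes, and each library left out. Of the GENCODE 29 check, 94.3% of IDs matched, 71.5% of them with the same ends, so coordinates are as deposited.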

Additional observations from a re-analysis of the deposited data

How the results depend on the processing

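The count of genes called, 0 in the reported fit, was 208 without the count filter and 58 by DESeq2, and 0 under the other scalings, limma voom, the FPKM fits and without mitochondrial genes. With single libraries left out it ran from 3 to 3971; there a group holds 1 library, whose spread is assumed to be that of the others, and the cause was not tested. The shared replicate numbers give no stated pairing: the replicate differences of the groups correlated at r = -0.324 across genes, the replicate number as a block gave 26 calls, and crossed numbers, added after seeing the data, 1430.

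The 5 tested members had a lower mean in the reported fit; the count was 3 on log2(FPKM + 1) and on log2(FPKM + 0.1) with a mean FPKM of at least 0.5, where CCN4 and CCN5 are left out by construction. With single libraries left out it ran from 3 to 5, since without untreated replicate 1 CCN1 and CCN2 reversed; the log2 fold change of CCN1 ran from -0.78 to 0.016 and that of CCN2 from -0.64 to 0.16. On log2(FPKM + 1) without a minimum the log2 fold change of CCN4 was -0.71, because the pseudocount exceeds its level. Of the list genes 61 had a lower mean, and 40 of 78 on both FPKM scales with the minimum; with single libraries left out the count ran from 44 to 64. All 15 pairwise orders of the untreated levels held when counts per kilobase were scaled by TMM.

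Depth limits CCN4 after Antcin K (14 counts), CCN5 and CCN6.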
